A study of Mus musculus with 2 samples.

Results

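Tumour cells carrying a strong interferon signature were examined in 2 single-cell libraries, 1 from a tumour of MC38 cells made to overexpress RSPO3 (MC38-RSPO3-OE) and 1 from a tumour of control cells (MC38-Ctrl), both grown in C57BL/6 mice. MC38 is a mouse colon carcinoma line and RSPO3 is an R-spondin, a secreted protein that heightens the response of cells to Wnt. The labels call the tissue a xenograft, although line and host are both mouse, and they name no other treatment. The sources used here do not give the number of mice behind a library, their age, the tumour site or the harvest time. A barcode was called a tumour cell when it held no UMI (unique molecular identifier, 1 counted transcript) of Ptprc, the pan-leukocyte CD45 gene, at least 1 UMI of Hmga2, an oncofetal chromatin gene, and fewer than 10 UMIs of the macrophage genes C1qa, C1qb and C1qc together. Each tumour cell was scored, and the cells described here were chosen by this score, from its UMIs of Rsad2, Ifit1, Ifit3, Ifit3b and Usp18, divided by all its UMIs. The 853 cells in the highest 10% of 8531 tumour cells, out of 14154 barcodes kept, are called interferon-high cells here. Of these, 467 came from RSPO3-OE and 386 from Ctrl, and 3746 and 3932 other tumour cells served for comparison.

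Type I interferons signal through the receptor IFNAR1/IFNAR2 and the kinases JAK1 and TYK2 to the factor ISGF3, which holds STAT2 and IRF9. ISGF3 binds the interferon-stimulated response element (ISRE) in front of antiviral genes, while interferon gamma is known to act at the gamma-activated sequence (GAS). Tumour cells that receive these signals are known to make T cell-attracting chemokines and to show more antigen.

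Promoter sequences of Rsad2, Ifit1, Ifit3 and Ifit3b and of 3 further genes are given because they carry the element through which the family is known to respond. They come from RefSeq on GRCm38.p6, the assembly that mm10 names, and run 5′ to 3′ on the gene's strand. Capitals mark matches to an ISRE-like motif, TTTCNNTTTC on either strand, where overlapping matches are joined. Isg15, a ubiquitin-like modifier, was picked for display after its values were seen, as were Cxcl10 and Stat2.
Rsad2, chr12:26456533-26456602, minus strand: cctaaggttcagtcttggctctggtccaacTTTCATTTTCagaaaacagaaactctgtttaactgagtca
Ifit1, chr19:34640755-34640843, plus strand: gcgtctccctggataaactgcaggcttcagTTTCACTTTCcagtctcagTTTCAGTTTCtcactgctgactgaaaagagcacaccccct
Ifit3, chr19:34583343-34583446, plus strand: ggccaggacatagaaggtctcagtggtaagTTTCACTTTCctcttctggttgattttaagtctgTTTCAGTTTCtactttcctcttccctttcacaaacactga
Ifit3b, chr19:34607739-34607842, plus strand: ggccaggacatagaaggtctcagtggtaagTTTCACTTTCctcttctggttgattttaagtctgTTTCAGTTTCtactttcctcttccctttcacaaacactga
Isg15, chr4:156200845-156200926, minus strand: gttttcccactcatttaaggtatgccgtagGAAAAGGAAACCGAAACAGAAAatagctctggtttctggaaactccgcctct
Cxcl10, chr5:92349063-92349132, minus strand: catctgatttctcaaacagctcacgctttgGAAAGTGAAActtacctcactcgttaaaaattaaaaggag
Stat2, chr10:128270248-128270315, plus strand: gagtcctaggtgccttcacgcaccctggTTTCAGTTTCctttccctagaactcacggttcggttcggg

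The Ifit3 and Ifit3b stretches were equal at 104 of 104 bases. These stretches lie before the start, and the transcripts were not compared. Whether UMIs of this pair can be told apart was not tested. The motif began 120 bases before the annotated start of Rsad2, and 104 and 85 bases before that of Ifit1. Isg15 held 3 overlapping matches on the opposite strand, the farthest 78 bases before the start. In windows from 250 bases before to 50 after the start, all 4 score genes with a window matched (Ifit1, Ifit3, Ifit3b and Rsad2), against 3.44% of 32851 windows. The GAS-like motif TTCNNNGAA, found in 8.30% of windows, was in 0 of these 4. A match describes letters only.

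The score formed a continuum with a long upper tail, not a separate cluster. It is given as CPM, the UMI count scaled to a common total per cell or group of cells. The last cell inside stood at 972.573 CPM (20 of 20564 UMIs) and the first outside at 972.447 CPM. Within 25% of that boundary lay 97 and 67 interferon-high cells and 148 and 102 others of RSPO3-OE and Ctrl, so the group is a range of a score. In interferon-high cells the median score was 1958 CPM (RSPO3-OE) and 2282 CPM (Ctrl), against 98.7 and 37.0 CPM in the other tumour cells. The highest cell of RSPO3-OE reached 29699 CPM and that of Ctrl 19257 CPM. No score UMI was seen in 17.3% of RSPO3-OE and 37.8% of Ctrl tumour cells. The interferon-high cells held 66.7% and 66.8% of all score UMIs of their library's tumour cells.

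**Figure D1:**
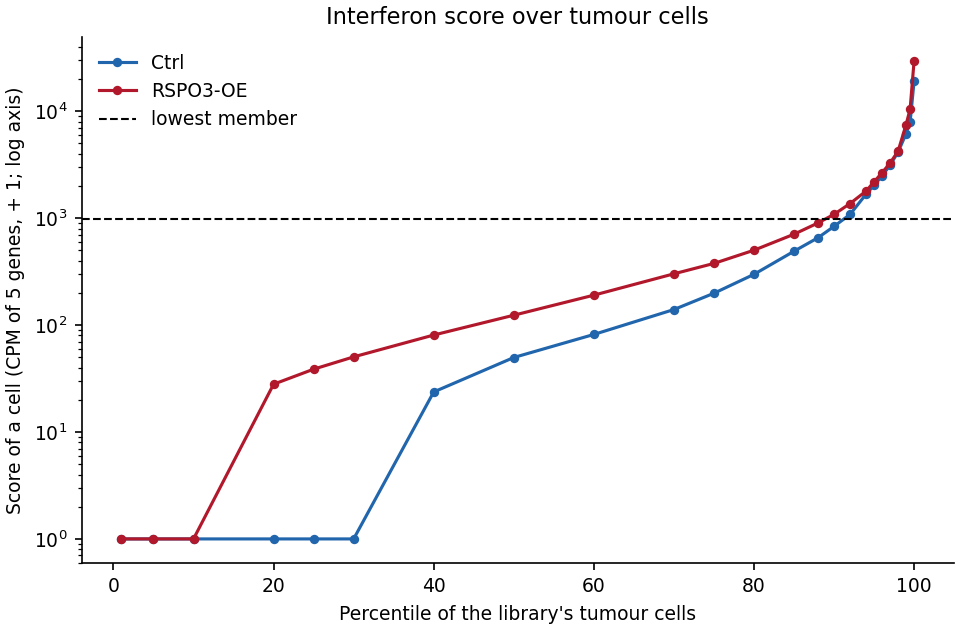
Score of a tumour cell (CPM of the 5 genes plus 1, log axis) at percentiles of each library's tumour cells; the dashed line is the lowest interferon-high cell. The RSPO3-OE curve lies above Ctrl from the 20th percentile up to the boundary, and both bend upward together above it.

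The 5 genes chose the cells, so their levels are a description. Rsad2, which encodes the antiviral enzyme viperin, had 1293 CPM in interferon-high cells of RSPO3-OE and 767 CPM in those of Ctrl, against 45.6 and 19.8 CPM in other tumour cells. Ifit1, an RNA-binding antiviral protein, stood at 670 and 752 CPM, against 31.8 and 18.5 CPM. Ifit3, its partner, stood at 754 and 983 CPM, against 51.0 and 30.7 CPM. The mixture differed between the libraries, with Rsad2 giving 41.7% of the score UMIs in RSPO3-OE and 26.5% in Ctrl. Ifit3b stood at 141 and 181 CPM, against 6.66 and 3.98 CPM. Usp18, a protease that removes ISG15 and restrains IFNAR signalling, stood at 241 and 209 CPM, against 35.5 and 18.9 CPM.

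Interferon-high cells made up 11.1% of RSPO3-OE tumour cells (exact Clopper-Pearson 95% interval 10.2 to 12.1%) and 8.94% of Ctrl tumour cells (8.10 to 9.83%). With 1 library per group no test of a group difference can be made. All intervals here cover counting error only, and UMIs of 1 cell share that cell. The share varied with the depth of the cell. Among cells of 5000 to 10000 UMIs it was 8.33% (4 of 48) in RSPO3-OE and 25.3% (110 of 434) in Ctrl. From 10000 UMIs on the order was the other way, with 17.1% against 10.8% at 10000 to 15000 UMIs and 9.88% against 5.09% at 20000 to 30000 UMIs. Over all cells of at least 10000 UMIs, a limit set after seeing the data, the shares were 12.5% and 7.25%.

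**Figure D2:**
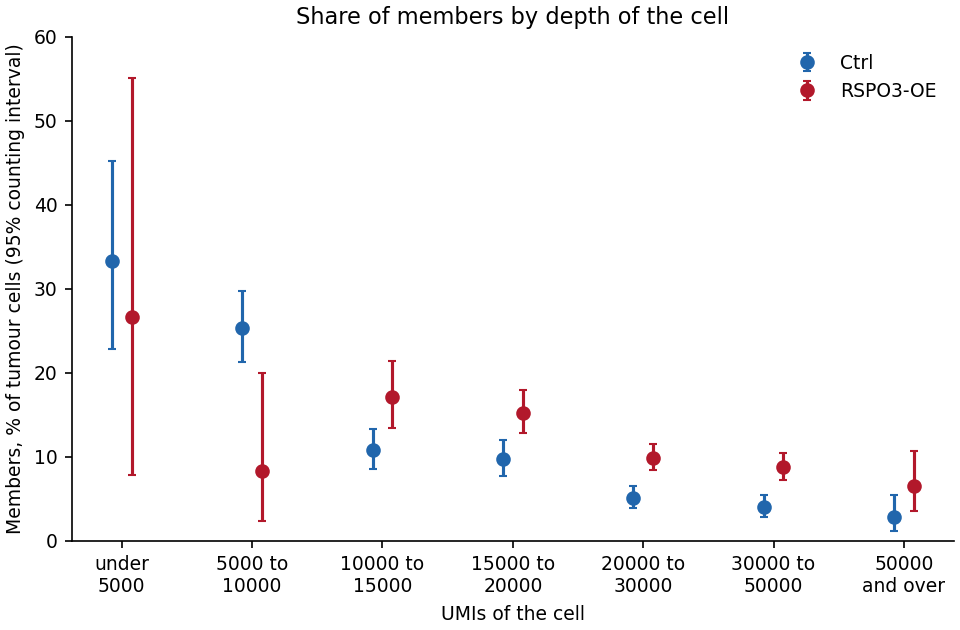
Interferon-high cells as a percentage of tumour cells by UMIs of the cell, with 95% Clopper-Pearson counting intervals. Ctrl lies above RSPO3-OE below 10000 UMIs and under it in each bin from 10000 UMIs up; the lowest RSPO3-OE bin holds 15 cells.

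Interferon-high cells were shallower than other tumour cells, with median UMIs of 21990 against 25985 in RSPO3-OE and 13745 against 22328 in Ctrl. Their median mitochondrial share was 2.88% against 2.84% in RSPO3-OE, and 5.33% against 3.86% in Ctrl. Malat1, a nuclear RNA, stood in Ctrl at 13008 CPM against 7469 CPM and in RSPO3-OE at 5870 against 5300 CPM. In Ctrl, depth and these RNA quality values thus moved together with the score. Their part in the Ctrl ratios was not tested. Values within 15000 to 30000 UMIs are given for some results only, and most Ctrl ratios below carry none. The count of genes at least 2-fold higher in Ctrl interferon-high cells was 665 over all depths and 381 within that range.

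Markers of other cell types were counted in the interferon-high cells, and those of fibroblasts are given with the matrix genes. All 12 macrophage markers had UMIs, with a summed level of 81.6 CPM against 77.8 CPM in the other tumour cells of RSPO3-OE. In Ctrl the sums were 132 against 85.3 CPM. There 6 of the 12 had a counting interval above 0, against 0 in RSPO3-OE. The share of all genes with such an interval was not determined. The median was 2 and 1 macrophage marker UMIs per interferon-high cell. Summed T cell markers stood between 2.86 and 3.91 CPM in all 4 groups of cells, with a median of 0 UMIs per cell. The 6 plasmacytoid dendritic cell markers summed to 1705 against 1064 CPM in RSPO3-OE and 1957 against 959 CPM in Ctrl. Of these sums Bst2, which is also an interferon-stimulated gene, gave 1432 against 814 CPM and 1704 against 745 CPM, while Siglech and Ly6d had 0 UMIs in interferon-high cells of both libraries. Monocyte markers summed to 1335 and 982 CPM, of which Plac8 alone gave 1307 and 939 CPM, while Ccr2 stood at 0.434 and 0.156 CPM. Scrublet, a doublet caller, marked none of the 853, but it also marked few other tumour cells, 34 of 3746 in RSPO3-OE and 11 of 3932 in Ctrl. The libraries shared 7 cell barcodes, 1 of them among the interferon-high cells of RSPO3-OE and 0 among those of Ctrl.

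The tumour label rests mainly on the rule. Hmga2, which the rule required, stood at 326 and 310 CPM in interferon-high cells. Y-linked UMIs were in 3 and 2 interferon-high cells, and among all tumour cells in 33 and 20. The epithelial gene Epcam had 0 UMIs in the tumour cells of both libraries, whereas the fibroblast marker Dcn, a matrix proteoglycan, stood at 2969 and 2358 CPM in interferon-high and at 1978 and 1645 CPM in other tumour cells. Thy1, another fibroblast marker, stood at 0.26 CPM and 0.156 CPM. Rspo3 UMIs were in 19.7% of RSPO3-OE interferon-high cells (16.2 to 23.6%) and 22.5% of the other tumour cells (21.2 to 23.9%), against 2.62% of macrophages, whose median depth was 12230.5 UMIs. After thinning to 5000 UMIs, the shares with Rspo3 were 11.9% and 14.3%. No Rspo3 UMI was seen in the Ctrl tumour cells, which allows up to 0.469 CPM in its interferon-high cells at a floor of 3 counts.

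Across genes with at least 20 UMIs in a library's tumour cells, score genes left out, 339 of 13323 (2.54%) were at least 2-fold higher in RSPO3-OE interferon-high cells and 371 (2.78%) at least 2-fold lower. In Ctrl 665 of 13117 (5.07%) were higher and 266 (2.03%) lower. A sum of 0 was replaced by 3 counts. The Ctrl higher count, and the counts over both libraries, can thus include genes with 0 UMIs in Ctrl interferon-high cells. Gdf15, with 0 UMIs there and 29 UMIs in other Ctrl tumour cells, had a ratio of 0.69, short of 2-fold. How many genes counted are of this kind was not determined. Of 12768 genes measured in both libraries, 176 (1.38%) were at least 2-fold higher in both and 37 (0.29%) lower in both, while 43 (0.337%) went 2-fold in opposite directions. Simulated counts were drawn from the gene sums and held no spread between cells. In them, 2.72% (RSPO3-OE) and 3.44% (Ctrl) of genes set unchanged went past 2-fold in either direction. Among those with at least 100 UMIs it was 0.197% and 0.592%. A part of the genes counted here can therefore stem from counting error alone. The median log2 ratio over all genes was -0.04 in RSPO3-OE and 0.02 in Ctrl. Gene lists below are described by counts and medians beside these shares, since 1 library per group allows no test and genes that vary with the score genes within cells are bound to differ.

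**Figure D3:**
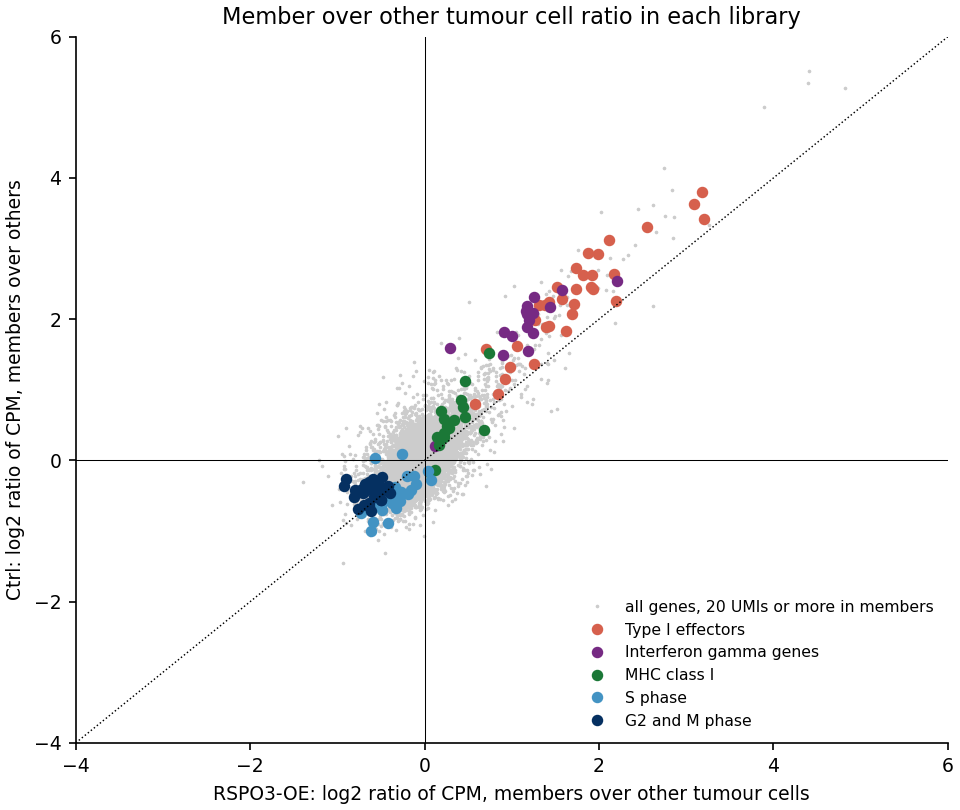
Log2 ratio of CPM, interferon-high (members) over other tumour cells, in RSPO3-OE (x) and Ctrl (y); each point is a gene with at least 20 UMIs in the interferon-high cells of both libraries, coloured by list, and the dotted line marks equal ratios. Type I and interferon gamma genes lie at the upper right, mostly above the dotted line, MHC class I genes near 0.25 and 0.48, and cell cycle genes below 0.

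Interferon genes themselves were nearly silent. All 13 numbered Ifna genes on the list had 0 UMIs in tumour cells. Ifnab, another interferon alpha gene, gave 2 UMIs in interferon-high and 1 UMI in other tumour cells of RSPO3-OE, and 0 in Ctrl. Ifnz, an interferon zeta gene, was the 1 ligand with at least 20 UMIs. Its UMIs were in 2 interferon-high cells (0.428%, interval 0.0519 to 1.54%) and 24 other tumour cells (0.641%, 0.411 to 0.952%) of RSPO3-OE. In Ctrl they were in 3 (0.777%, 0.161 to 2.25%) and 35 cells (0.890%, 0.621 to 1.24%), so the intervals overlapped in both libraries. Ifnb1, the interferon beta gene, was named after its values were seen. It gave 8 UMIs in 4 of 467 interferon-high cells (0.857%, interval 0.234 to 2.18%) and 4 UMIs in 2 of 3746 other tumour cells (0.0534%, 0.00647 to 0.193%) in RSPO3-OE. In Ctrl it gave 5 UMIs in 4 of 386 cells (1.04%, 0.283 to 2.63%) and 1 UMI in 1 of 3932 cells. Macrophages held Ifnb1 UMIs in 0.477% and 0.838% of cells, and the part of free RNA was not tested. Of 11 tumour cells with Ifnb1, 8 were thus interferon-high, and the cell with the highest score of all was among them. Ifng, made by T and NK cells, gave 1 and 0 UMIs in interferon-high cells.

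Receptors differed little. Ifnar1 had a log2 ratio of -0.04 in RSPO3-OE and stood at 24.7 against 18.3 CPM in Ctrl, and Ifnar2 stood at 38.9 against 33.8 and 33.5 against 33.5 CPM. Ifngr1, the ligand-binding chain for interferon gamma, stood at 84.1 against 69.8 and 67.4 against 72.3 CPM. None of the 5 receptor genes measured was 2-fold different in either library, with log2 ratios from -0.45 to 0.43.

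Signal transducers differed by member. The kinase Jak1 had log2 ratios of 0.01 in both libraries (149 against 148 CPM in RSPO3-OE, 122 against 121 CPM in Ctrl). Stat2, whose promoter is printed above, stood at 110 against 43.4 CPM in RSPO3-OE (log2 ratio 1.34, interval 1.25 to 1.43) and 121 against 21.0 CPM in Ctrl (2.53, 2.41 to 2.65). Its level in the other tumour cells was thus lower in Ctrl than in RSPO3-OE. Irf9, the DNA-binding part of ISGF3, had log2 ratios of 0.65 and 1.33, and Jak2, a kinase of the gamma receptor, 0.68 and 0.73.

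Among the interferon regulatory factors, Irf7, the amplifier of type I interferon production, led with 299 against 96.3 CPM in RSPO3-OE (log2 ratio 1.64) and 201 against 43.8 CPM in Ctrl (2.20). Irf5 stood at 14.2 against 7.13 CPM and 19.1 against 8.66 CPM, Irf2 had 0.71 and 0.84, and Irf1, induced by both interferon types, 0.39 and 0.99. Irf3, which is activated by phosphorylation, had -0.04 and 0.20. Irf8, a myeloid factor, was lower, with -0.26 and -0.29. The family therefore split by member.

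Nucleic acid sensors and adaptors differed by member. Among sensors of RNA, Ifih1 (MDA5) stood at 143 against 36.1 CPM in RSPO3-OE and 110 against 20.2 CPM in Ctrl, log2 ratios 1.99 and 2.44. Ddx58 (RIG-I) had 1.68 and 2.12, Dhx58 (LGP2) 1.98 and 2.70, and the endosomal receptor Tlr3 1.69 and 2.04. Zbp1, a sensor of Z-form nucleic acid, had 1.05 and 1.82, and Adar, which edits double-stranded RNA, 0.99 and 1.49. The DNA sensors Cgas and Aim2 had 0.17 and 0.08 in RSPO3-OE and 0.06 and -0.41 in Ctrl. The adaptor Mavs had -0.06 and -0.16, Tmem173 (STING) 0.28 and 0.14 and the kinase Tbk1 -0.26 and 0.11. Of 13 sensors and adaptors measured, 5 were at least 2-fold higher in RSPO3-OE and 7 in Ctrl, and 0 lower.

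Of 9 genes on the feedback inhibitor list, 1 was at least 2-fold higher in RSPO3-OE (Trim21) and 3 in Ctrl (Socs1, Trim21 and Uba7). The counting interval lay above 0 for 5 and 4, but the share of all genes with such an interval was not determined. Uba7 is on this list without being an inhibitor. Socs1, which blocks JAK kinases, stood at 88.9 against 53.9 CPM in RSPO3-OE (log2 ratio 0.72) and 48.6 against 21.8 CPM in Ctrl (1.16). Trim21, an antibody-binding ubiquitin ligase, had 1.26 and 1.57, and Uba7, the activating enzyme for ISG15, 0.74 and 1.44, the latter 0.93 within 15000 to 30000 UMIs. Ptpn2, a phosphatase acting on JAKs and STATs, had 0.03 and 0.07. The list median was 0.37 and 0.65.

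Antiviral effectors outside the score formed the list with most 2-fold genes. Of 40 genes listed, 37 were measured, and 30 were at least 2-fold higher in RSPO3-OE and 34 in Ctrl, with medians of 1.63 and 2.24. Ifit2, from the family of 3 score genes, stood at 95.8 against 10.6 CPM and 166 against 12.0 CPM (log2 ratios 3.18 and 3.80). Oasl1, related to the oligoadenylate synthetases, had 3.09 and 3.64, Cmpk2, a mitochondrial nucleotide kinase next to Rsad2, 3.20 and 3.41, and Isg15 2.55 and 3.31. Tnfsf10 (TRAIL), a death ligand, had 2.86 and 3.44 at low levels of 13.5 against 1.86 and 12.2 against 1.12 CPM. At the other end Ifitm3, which blocks viral entry, was already high in other cells, at 4126 against 2763 CPM and 3364 against 1933 CPM (0.58 and 0.80). Ms4a4c was the 1 gene of the list below 0 in both libraries, at under 1 CPM and positive in Ctrl within 15000 to 30000 UMIs (0.89). Within cells of 15000 to 30000 UMIs, a range chosen after seeing the data, the medians were 1.64 and 2.04. A second score from Isg15, Ifi44, Oasl1 and Cmpk2 picked 594 of the same 853 cells (69.6%).

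Interferon gamma-associated genes were higher too. Of 23 measured, 13 were at least 2-fold higher in RSPO3-OE and 17 in Ctrl, with medians of 1.16 and 1.81. Gbp5, a guanylate-binding GTPase, stood at 58.8 against 12.7 CPM and 58.2 against 10.0 CPM (log2 ratios 2.21 and 2.54). Irgm2, an immunity-related GTPase, had 1.25 and 2.31, Gbp6 1.43 and 2.17 and Tgtp1 1.58 and 2.42. The type I and gamma lists hold genes that both interferons are known to induce, so these counts do not tell one ligand from the other. In the promoter windows the ISRE-like motif was in 10 of 15 gamma genes and in 13 of 31 type I genes (41.9%), and the GAS-like motif in 10 of 15 and 7 of 31 (22.6%). Of the 176 genes at least 2-fold higher in both libraries 131 had a window, and 50 of them (38.2%) held the ISRE-like motif, against 3.86% of all measured genes with a window.

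Chemokines that attract T cells were higher. Cxcl10 stood at 3716 against 699 CPM in RSPO3-OE (log2 ratio 2.41, interval 2.39 to 2.43) and 5037 against 611 CPM in Ctrl (3.04, 3.02 to 3.06). Ccl5 had 663 against 225 CPM and 416 against 90.1 CPM (1.56 and 2.21). Cxcl9, typical of interferon gamma, had 239 against 126 CPM and 66.5 against 33.4 CPM (0.92 and 0.99). Over all kept barcodes Cxcl9 stood at 220 and 80.8 CPM. That is above its level in Ctrl interferon-high cells and in the other tumour cells of both libraries. The part of free RNA in the Cxcl9 levels was not tested. Cxcl10 was thus far from even among tumour cells. Monocyte-attracting Ccl7 had 1.07 and 1.36 and Ccl8 1.33 and 2.18. Ccl8 stood at 52.2 and 7.82 CPM in interferon-high cells, below its level of 138 and 19.5 CPM over all kept barcodes, and the part of free RNA was not tested. The growth factor gene Csf2 was lower, with -1.93 and -1.33, on 24 and 10 UMIs in interferon-high cells, but its ratios were -0.92 and -0.28 with the highest 20% of cells and -0.38 in RSPO3-OE with the score made from other type I genes.

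Antigen presentation genes shifted less. The 20 MHC class I genes had medians of 0.25 and 0.48, and 0 of them in RSPO3-OE and 3 in Ctrl reached 2-fold. Nlrc5, the transactivator of class I genes, had 0.74 and 1.53, the peptide transporter gene Tap1 0.47 and 1.13, and the nonclassical H2-T23 0.72 and 1.17. B2m, the light chain, stood at 2516 against 2098 CPM and 2325 against 1653 CPM (0.26 and 0.49), and was named after its values were seen. Cd274 (PD-L1), which restrains T cells, stood at 37.7 against 13.6 CPM in RSPO3-OE (1.47, 1.31 to 1.63) and 35.7 against 7.09 CPM in Ctrl (2.33, 2.11 to 2.55). Lgals9 had 1.04 and 1.36, whereas the ligand gene Cd276 had 0.10 and 0.05. Checkpoint genes were therefore unequal.

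Among cell death genes, the death receptor gene Fas had 0.87 and 1.20 (0.72 in Ctrl within 15000 to 30000 UMIs) and the inflammatory caspase gene Casp4 0.84 and 1.08. The NF-kB list had medians of 0.12 and 0.24, and the unfolded protein response list -0.06 and -0.01, close to the medians of all genes.

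Cell cycle genes were lower. Of 30 G2 and M phase genes, the counting interval lay below 0 for 30 in RSPO3-OE and 29 in Ctrl, with medians of -0.63 and -0.42, and 0 reached 2-fold lower. Ccnb1, the mitotic cyclin, stood at 65.9 against 101 CPM and 53.8 against 88.1 CPM (-0.62 and -0.71). For 26 of 30 S phase genes the counting interval lay below 0 in each library, with medians of -0.34 and -0.48. The medians over all genes were -0.04 and 0.02. How many of all genes had an interval below 0 was not determined, so the interval counts of both lists lack a background share. The nucleotide enzyme gene Rrm2 had -0.73 and -0.74. Depth moved with these lists to an unequal degree. Within RSPO3-OE interferon-high cells the S phase level of a cell and its UMIs had a Spearman correlation of 0.64 over 467 cells that share 1 library. In the 386 Ctrl cells it was 0.14. For G2 and M phase genes it was 0.59 and 0.22. Within 15000 to 30000 UMIs the G2 and M phase medians were -0.78 and -0.27. With the score made from other type I genes they were -0.27 and -0.22, so the size of this difference rests on the genes that make the score.

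Matrix genes were higher by a small margin. The 20 genes had medians of 0.44 and 0.48. Col3a1, a fibrillar collagen chain, stood at 2285 against 1309 CPM in RSPO3-OE and 853 against 601 CPM in Ctrl. Lum, a small proteoglycan, had 1.52 and 0.73. Mgp, an inhibitor of calcification, had 0.92 and 2.33, but its Ctrl ratio was 0.71 with the score made from other type I genes. The lipocalin gene Apod stood at 772 against 289 CPM and 359 against 101 CPM (1.42 and 1.84). Col3a1, Dcn and Lum are also fibroblast markers, and the 8 listed fibroblast markers together stood at 6050 against 3811 CPM and 3868 against 2703 CPM. The part of admixed fibroblast RNA was not tested. The keratin gene Krt8 was lower, at 371 against 558 CPM and 44.1 against 90.2 CPM (-0.59 and -1.03). Its Ctrl ratio was -0.33 with the highest 20% of cells, -0.50 with cells thinned to 5000 UMIs and -0.41 with the score made from other type I genes.

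Outside the lists, the 15 genes highest in both libraries included 5 of the Ifi200 cluster of DNA-binding proteins, Ifi207 (2.84 and 3.82), Ifi206 (2.75 and 4.13), Ifi205 (2.45 and 3.56), Ifi211 (1.67 and 2.23) and Mndal (1.64 and 2.31). These are closely related genes, and UMIs may be split between them. Slfn2, a Schlafen gene, had 2.66 and 3.23, the RNA helicase-like Znfx1 2.16 and 2.66, Daxx, a histone chaperone, 2.19 and 1.95, and Il15, a cytokine that sustains NK and CD8 T cells, 1.54 and 2.07. The TRIM genes Trim34a, Trim12a and Trim12c had 1.88, 1.59 and 1.56 in RSPO3-OE and 2.60, 2.41 and 2.26 in Ctrl. The lowest 10 included Hmgb3, a chromatin protein gene (-0.84 and -0.91), Trip13, a checkpoint ATPase gene (-0.77 and -0.82), Ect2, which acts in cytokinesis (-0.76 and -0.80), and Tk1, a thymidine kinase gene (-0.67 and -0.61).

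The pattern was graded with the score. The type I list, summed, stood at 13176 CPM in the highest 1% of RSPO3-OE cells and at 3836 CPM in cells with a score of 0, and at 15574 and 2844 CPM in Ctrl. Cxcl10 ran from 9586 CPM to 405 CPM and from 13470 CPM to 467 CPM. Cd274 ran from 101 to 5.96 CPM and from 72.7 to 4.21 CPM. In both libraries these levels were highest where the score was highest. Apod ran from 893 to 188 CPM and from 795 to 69.4 CPM. Cells of the 10 to 20% band, just outside, stood between, with a type I sum of 7141 and 6570 CPM against 8944 and 8006 CPM in the 5 to 10% band. Among interferon-high cells the type I level and the score had Spearman correlations of 0.35 over 467 RSPO3-OE cells and 0.44 over 386 Ctrl cells, which share a library.

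**Figure D4:**
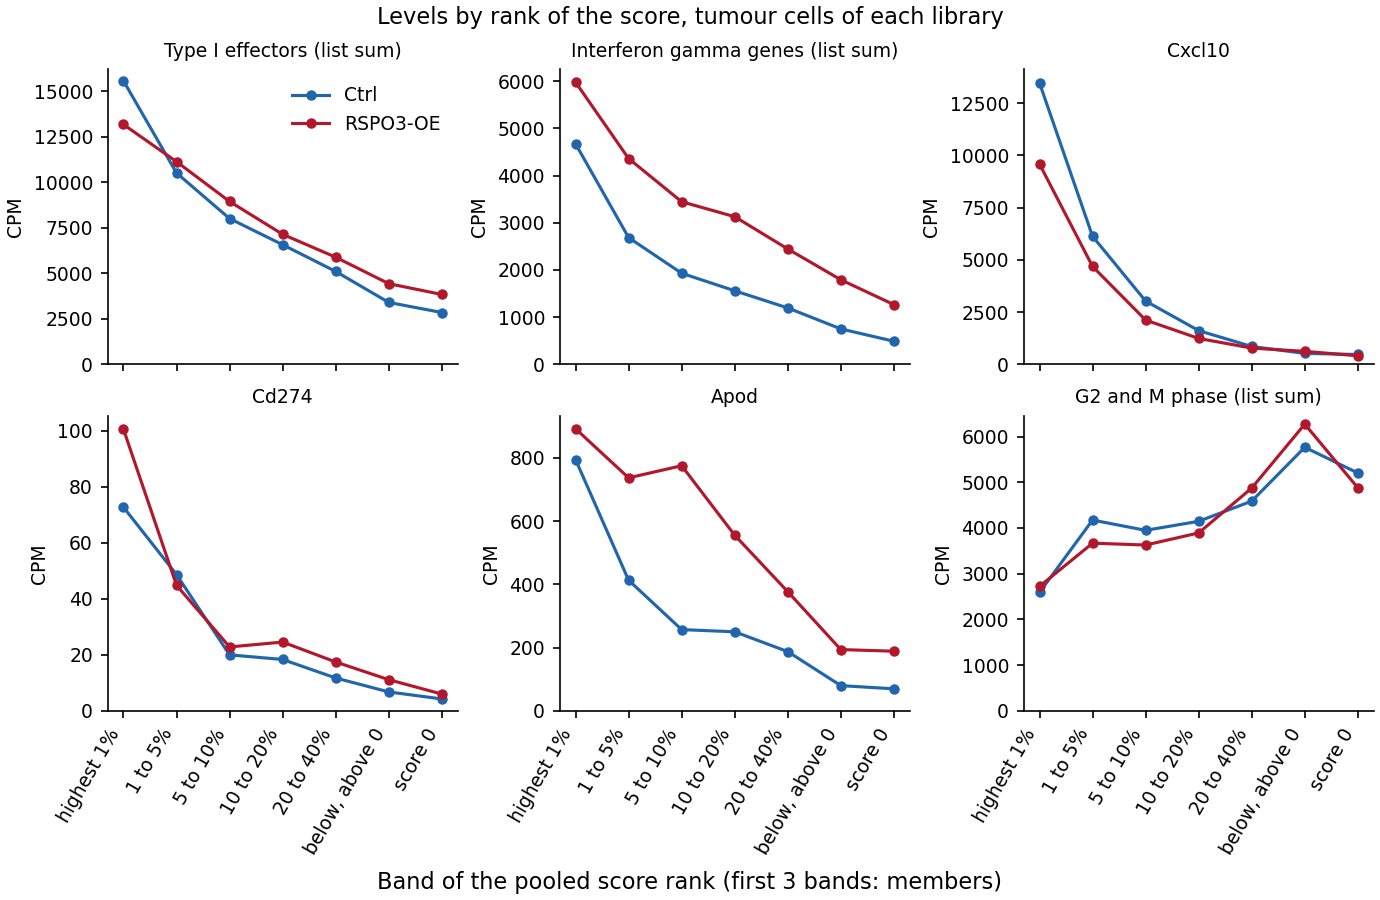
Level (CPM of summed UMIs) of 3 gene lists and 3 genes in 7 bands of the pooled score rank, from the highest 1% to cells with a score of 0, for each library; the first 3 bands are the interferon-high cells. Interferon lists, Cxcl10 and Cd274 decline from left to right in both libraries with one step up for Cd274 at 10 to 20% in RSPO3-OE, and G2 and M phase genes are lowest in the first band.

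Between libraries, the interferon-high cells were compared with each other, under 1 common boundary on the score. Of 11265 genes, 399 (3.54%) were at least 2-fold higher in RSPO3-OE and 754 (6.69%) at least 2-fold lower, with a median of all genes of -0.11, against 1034 (7.33%) and 869 (6.16%) of 14097 genes and a median of -0.09 in the other tumour cells. The type I list had a median of 0.03 over 36 genes in interferon-high cells and 0.53 over 37 genes in other tumour cells, of which 3 and 7 were at least 2-fold higher and 3 and 0 at least 2-fold lower. The gamma list had 0.41 and 1.14, and the MHC class I list 0.18 and 0.40. No test of these 2 medians against each other can be made, and the boundary itself holds the score levels of interferon-high cells close.

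**Figure D5:**
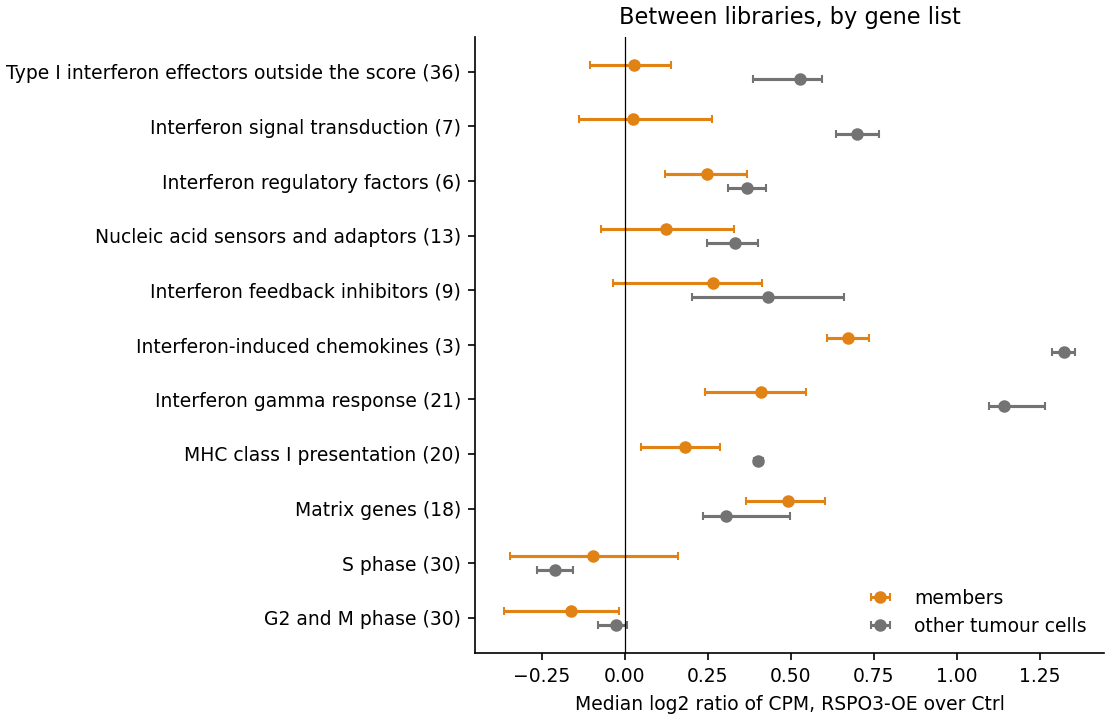
Median log2 ratio of CPM, RSPO3-OE over Ctrl, by gene list (number of genes measured in interferon-high cells in brackets), for interferon-high cells (members) and other tumour cells; whiskers join the medians of the genes' lower and upper 95% counting bounds. In the plotted lists from type I effectors down to MHC class I the interferon-high cells lie nearer to 0 than the other tumour cells; the receptor list, not plotted, had 0.30 and 0.02.

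Single genes departed from the list medians. Cxcl10 was lower in RSPO3-OE than in Ctrl interferon-high cells (log2 ratio -0.44, interval -0.46 to -0.42) and higher in the other tumour cells (0.20, 0.18 to 0.21). Stat2 had -0.14 and 1.05. Cxcl9 was higher in RSPO3-OE in both, at 1.85 and 1.92, as was Cmpk2 at 1.92 and 2.13. For Cxcl9 the part of free RNA was not tested. Rsad2 had 0.75 and 1.20. Oas2, an oligoadenylate synthetase, was at the low end with -1.23 and -0.24. Oas2 was named as the lowest of the list after its values were seen.

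The largest ratios between interferon-high cells lay outside the interferon lists. Apart from Rspo3 itself, Has1, a hyaluronan synthase, had 64.8 CPM in RSPO3-OE against 3.60 CPM in Ctrl (log2 ratio 4.17). The complement genes Serping1, C2 and C4b had 3.94, 3.45 and 3.13, and the same genes had 4.46, 3.51 and 3.75 in other tumour cells. Krt8 had 3.07 (interval 2.90 to 3.25) against 2.63 (2.60 to 2.66) in other tumour cells. Lgals7, a galectin gene, had 2.67 in both. Acod1, which makes itaconate, had 3.28, and was also higher in interferon-high than in other cells within RSPO3-OE (2.33) and Ctrl (2.91). At the lower end stood Rgs16, a regulator of G protein signalling (-2.05), Lars2 (-1.81), Sox4, a transcription factor (-1.75), Col18a1 (-1.68) and Txnip (-1.59). Within 15000 to 30000 UMIs Lars2 had -0.72 and Txnip -0.78. Hspa1b and 4 histone genes were also among the lowest 10, but they have near-identical copies. Lars2 and Malat1, which stood higher in the interferon-high cells of Ctrl than in those of RSPO3-OE, belong to the RNA quality list, whose median was -1.34.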

How the data were processed

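Droplet 3′ single-cell RNA sequencing was deposited as 1 matrix of raw UMI counts per library (MC38-RSPO3-OE and MC38-Ctrl), made by the authors with Cell Ranger 3.0.1, per the labels' protocols, on mm10, per the submitters' processing notes. The matrix header gives software version 3.1.0. Deposited barcodes numbered 7314 and 7301, with 155615189 and 143881763 UMIs. Kept were barcodes with at least 200 genes and at most 20% mitochondrial UMIs, which left out 150 and 311.

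UMIs were summed per library over interferon-high and over other tumour cells and divided by the group total to give CPM. Log2 ratios have exact binomial 95% counting intervals, shares exact Clopper-Pearson intervals. Where a sum was 0, 3 counts stood in as a floor. Genes needed 20 UMIs in the 2 sums compared. With 1 library per group no p-value was computed. Doublets stayed in, and Scrublet (scanpy 1.11.5) with an expected rate of 0.05 served as an alternative. Members and lists were chosen with earlier results of these data known.

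Genes named are all measured members of the ligand, receptor, transducer, regulatory factor, sensor, inhibitor and T cell chemokine lists, up to 4 highest and 2 lowest members of each other list, 15 highest and 10 lowest genes outside the lists (at least 20 CPM), and the 10 highest and 10 lowest between libraries (at least 50 CPM), of which a selection is printed, and some genes of these lists are not reported here. Other genes named were picked with their values in view. Of the genes listed, Mx1, Mx2 and Cxcl11 were not analysed here. The ratio and interval code was tested on simulated counts. Python 3.11.15, numpy 2.4.6, scipy 1.17.1 and pandas 2.3.3 were used.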

Additional observations from a re-analysis of the deposited data

How the results depend on the processing

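The interferon-high share was higher in RSPO3-OE than in Ctrl under all 11 alternatives that pool both libraries, with a ratio of 1.07 to 1.73. These alternatives reuse the same 2 libraries and are not independent checks. Without Ifit3b the shares stayed at 11.1% and 8.94%. The ratio of 1.73 came with at least 10000 UMIs, which leaves out the depths where the Ctrl share was higher. With the highest 5% the shares were 5.17% and 4.84%, and with the highest 20% 23.2% and 16.8%. With cells thinned to 5000 UMIs they were 10.2% and 7.97%. With at least 10000 UMIs (added after seeing the data) they were 12.5% and 7.25%. Counts of genes at least 2-fold higher depended on the settings. They were 753 in RSPO3-OE and 1162 in Ctrl with the highest 5%, 4535 and 5150 with a minimum of 1 UMI per gene, 175 and 289 with 100 UMIs, and 381 in Ctrl within 15000 to 30000 UMIs (added). With a minimum of 1 UMI, genes absent from interferon-high cells can count as higher in both libraries, because the floor stands in for a sum of 0. The type I median was 1.86 and 2.44 with the highest 5% and 1.43 in RSPO3-OE with the highest 20%. In Ctrl it was 2.10 with at least 10000 UMIs and 2.04 within 15000 to 30000 UMIs. Between interferon-high cells of the 2 libraries it was -0.11 with thinned cells, 0.18 with median-of-ratios scaling and 0.16 with at least 10000 UMIs, so its sign changed with the setting. The 173 ratios of at least 2-fold include list medians and the score genes' own ratios, which the rule fixes as high. Within 15000 to 30000 UMIs 167 of them could be computed and 142 stayed past 2-fold. With the highest 5%, 159 of 170 did. The causes were not tested.

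Among ratios of at least 2-fold in the main setting, reversed directions were seen for low genes. Sign changes of smaller ratios are not listed. The genes reversed had from 1 UMI (Gdf15, RSPO3-OE) to 20 UMIs (Nr4a3, Ctrl) in interferon-high cells, and a reversed value may rest on the floor of 3 counts. Gdf15 had 0.60 with the highest 20% and 0.36 with the score from other type I genes (RSPO3-OE). In Ctrl, Nr4a3 had -0.014 with thinned cells, Hspb1 0.041 with the highest 20% and Loxl2 0.46 within 15000 to 30000 UMIs. Postn had 0.47 with the highest 5% in Ctrl. In RSPO3-OE, Postn had 0.088 with tumour cells chosen by having no Y-linked UMI, in place of the Hmga2 requirement. Lgr6 had 0.24 and Krt18 0.30 with the highest 5% (RSPO3-OE). No paired analysis was possible because each group has 1 library. No replicate could be left out.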

Other observations

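Among 20 immediate early genes, which answer growth factors and stress within minutes, the medians in interferon-high over other cells were 0.23 (RSPO3-OE) and 0.70 (Ctrl), against -0.04 and 0.02 over all genes. Atf3, a stress-induced repressor, stood at 443 against 277 CPM in RSPO3-OE and 211 against 114 CPM in Ctrl (log2 ratios 0.68 and 0.88). Dusp1, a phosphatase acting on MAP kinases, had 0.52 and 0.71. Between libraries the list had a median of 0.78 in interferon-high and 1.16 in other tumour cells. These genes are also known to respond to tissue dissociation, whose part was not tested.

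Hypoxia and glycolysis genes had medians of -0.05 and 0.13. Hk2, a hexokinase, had 0.42 and 0.64 and Eno1, a glycolytic enzyme, -0.22 and -0.27. The Wnt and R-spondin list had medians of -0.19 and 0.01, with the cyclin gene Ccnd1 at -0.33 and -0.40 and Myc at -0.19 and 0.31. Haemoglobin genes gave 761 UMIs in Ctrl interferon-high cells, of which 754 were in 1 barcode, and 2 UMIs in those of RSPO3-OE. Without that barcode, 173 of 173 ratios of at least 2-fold kept their direction. List medians and the score genes' own ratios, which the rule fixes as high, are among them.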
